A study of Homo sapiens with 15 samples.

Results

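Pt-exo-seq reads were examined over 8 very long genes that lie at common fragile sites: FHIT, WWOX, LRP1B, MACROD2, CSMD1, CNTNAP2, IMMP2L and DLG2. A 1 kb window of the count table belonged to a gene when its midpoint fell in the gene body on hg19 (GRCh37). This gave 15570 windows of 3439652 in the table, and the 8 genes were 8 of 20098 annotated protein-coding genes. The same reads were also summed in 50 kb bins, of which 280 of 60739 had their midpoint in a member. Pt-exo-seq maps cisplatin adducts from the positions where they stop exonuclease digestion of sheared DNA. PEO1 is a cisplatin-sensitive and PEO4 a cisplatin-resistant high-grade serous ovarian cancer line, both grown from 1 patient, from before and after resistance was seen in the clinic. There were 3 replicates in each of 5 groups: untreated PEO1, 16 µM PEO1, untreated PEO4, 16 µM PEO4 and 32 µM PEO4, the dose being that of cisplatin given for 5 h. The study chose 32 µM for PEO4 to match its total adducts to those of 16 µM PEO1. The untreated libraries are the background of each line, and copy number was not measured.

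Common fragile sites are regions that every person carries and that break or form gaps when DNA replication is slowed. They often lie in very long genes with few replication origins, where transcription and replication meet, and they are among the regions most often rearranged in tumours. Cisplatin binds mainly at neighbouring guanines, so AT-rich genes hold fewer of its targets per length. The members were AT-rich, with a GC content from 34.8% in LRP1B to 42.6% in WWOX, and neighbouring GG or CC bases began at 7.31% to 11.1% of positions. Libraries held between 27.7 M and 56.6 M counts, with a median of 33.1 M. Counts were scaled to the median library, and a level is given as scaled reads per kb of gene body. Neighbouring windows share 100 bases, and the sources used here do not say how reads there were counted. Nothing in the labels says that replicates were separate cultures, so p-values measure the spread between these libraries.

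Gene-body levels fell into distinct ranges, and they differed between the lines in part of the members. CNTNAP2, MACROD2 and LRP1B kept PEO1 and PEO4 apart in every library, whereas FHIT, WWOX and IMMP2L overlapped between the untreated lines. In untreated PEO1 the order from low to high was WWOX (2.24 ± 0.14, SD, n = 3), CSMD1 (5.91 ± 0.12), FHIT (6.30 ± 0.51), LRP1B (6.53 ± 0.52), IMMP2L (11.2 ± 0.71), MACROD2 (12.7 ± 0.72), CNTNAP2 (16.8 ± 0.72) and DLG2 (19.4 ± 0.72). CSMD1, FHIT and LRP1B were neighbours whose levels lay within their spread of each other. In untreated PEO4 the order was WWOX (2.23 ± 0.092), CSMD1 (5.19 ± 0.20), MACROD2 (6.004 ± 0.046), FHIT (6.02 ± 0.087), LRP1B (10.5 ± 0.53), IMMP2L (11.3 ± 0.30), CNTNAP2 (11.3 ± 0.35) and DLG2 (17.2 ± 0.67). Here MACROD2 and FHIT, and then IMMP2L and CNTNAP2, did not differ beyond their spread. The median over autosomal 50 kb bins was 631 scaled reads in untreated PEO1 and 602 in untreated PEO4. Against it, the median bin of FHIT held 320 ± 24 (SD, n = 3) in PEO1 and 290 ± 5.2 in PEO4, and that of CSMD1 held 298 ± 7.3 and 264 ± 11. DLG2 stood at the other end, with 964 ± 48 and 857 ± 27 scaled reads per bin.

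**Figure D1:**
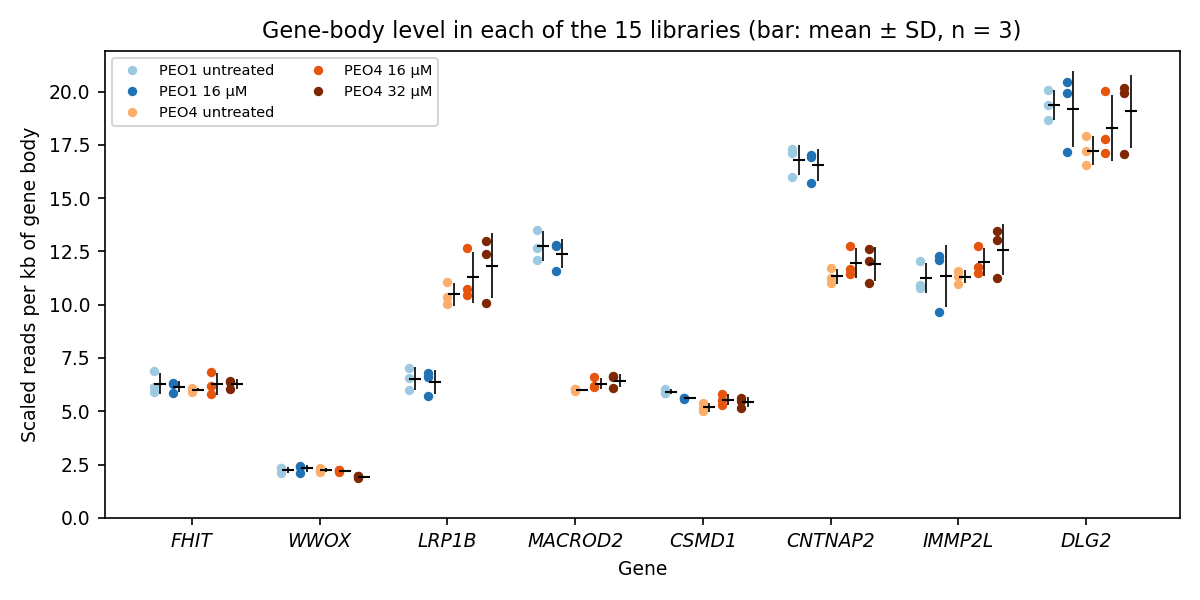
Each point is 1 library; the vertical axis gives scaled reads per kb of gene body for each of the 8 genes on the horizontal axis, coloured by line and dose, with the mean and SD of 3 replicates beside the points. LRP1B was higher and MACROD2 and CNTNAP2 were lower in all PEO4 libraries, and WWOX lay near 2 in all 15.

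By edgeR's quasi-likelihood test with Benjamini-Hochberg adjustment over 17241 gene bodies, 4 of the 8 members differed between the untreated lines at an adjusted p under 0.05, beside 22.4% of all gene bodies. At 16 µM in both lines, in libraries that the untreated comparison did not use, 3 of 8 differed, beside 18.1% of all gene bodies. LRP1B was higher in PEO4, with a log2FC of 0.60 ± 0.13 (SE, adjusted p = 0.00127) untreated and 0.84 ± 0.13 (adjusted p = 3.62e-05) at 16 µM. MACROD2 was lower, at -1.17 ± 0.10 (adjusted p = 1.49e-08) and -0.96 ± 0.10 (adjusted p = 2.04e-07), and CNTNAP2 was lower, at -0.65 ± 0.10 (adjusted p = 3.46e-05) and -0.46 ± 0.10 (adjusted p = 0.0018). With a GC offset per library the untreated differences were 0.90 for LRP1B, -0.92 for MACROD2 and -0.40 for CNTNAP2, and all 3 passed. CSMD1 passed in the untreated libraries, at -0.27 ± 0.094 (adjusted p = 0.0397), and its value at 16 µM was -0.0033 ± 0.094 (adjusted p = 0.997). The CSMD1 call was lost with a GC offset per library (-0.037, adjusted p = 0.549), with the replicate number as a block (adjusted p = 0.0709) and without any one of 5 of the 6 untreated libraries, namely PEO1 replicate 1, 2 or 3 or PEO4 replicate 1 or 3 (adjusted p from 0.0516 to 0.184). FHIT (-0.15 ± 0.11), WWOX (-0.092 ± 0.093), IMMP2L (-0.077 ± 0.12) and DLG2 (-0.25 ± 0.12) did not pass in the untreated lines. DLG2 passed in a fit of only the groups compared (-0.24 ± 0.065, adjusted p = 0.0030), in which 5 of 8 members and 32.0% of all gene bodies were called. With the GC offset, which removes each library's smooth trend on GC content, the line difference of IMMP2L was 0.21 ± 0.035 (adjusted p = 5.4e-07) untreated and 0.15 ± 0.035 (adjusted p = 0.000471) at 16 µM, and passed in both.

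**Figure D2:**
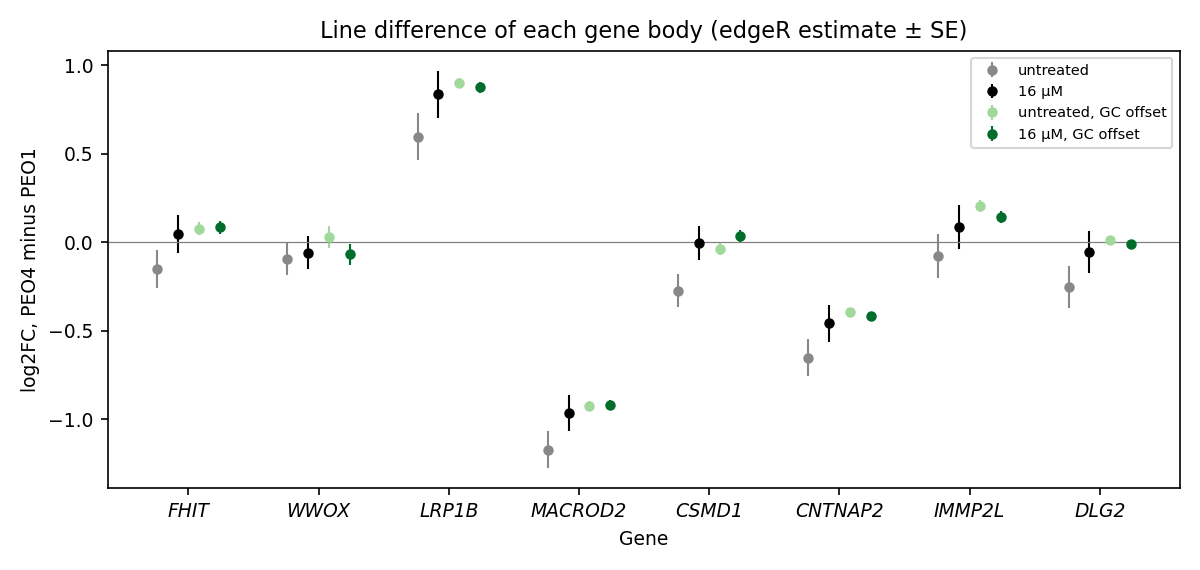
The vertical axis gives the log2FC of PEO4 minus PEO1 for each gene body with its SE from edgeR, untreated and at 16 µM, without and with a GC offset per library. LRP1B lies above 0 and MACROD2 and CNTNAP2 below 0 in all 4 estimates, and in all members but WWOX the untreated and the 16 µM estimates lie closer together with the GC offset.

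WWOX, an oxidoreductase with WW domains that is counted among tumour suppressors, lies on chromosome 16 (chr16:78133297-79246564, plus strand). It had a stretch with almost no reads inside it in both lines and in all 15 libraries. The stretch was chosen in the untreated libraries, where 14 adjacent 50 kb bins, chr16:78150001-78850000, were under 0.1 of the flank median in each library of each line. No bin of the other 7 members was under 0.5 of its flank median in all 3 untreated libraries of a line. For the edges, reads in 1 kb windows were pooled over all libraries of a line, treated ones included. The last window at or above 0.5 of the flank median was the same in PEO1 and PEO4, as was the first one on the other side. The nearly empty stretch between them ran from 78144401 to 78869699, which is 725 kb and 65.2% of the gene. Of its 806 windows, 90.4% were without a read over all 15 libraries, against 0.225% of 2222 windows in the flanks, and its reference sequence held no N bases.

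The reads left in the stretch numbered from 6 to 46 per library. As a share of the flank level, they came to 0.386% ± 0.148 (SD, n = 3) in untreated PEO1 and 0.399% ± 0.289 in untreated PEO4. In the treated libraries they came to 0.394% ± 0.142 (16 µM PEO1), 0.477% ± 0.172 (16 µM PEO4) and 0.353% ± 0.168 (32 µM PEO4). The treated libraries did not enter the choice of the 14 bins, but they did enter the pooled windows that set the edges. Treated and untreated libraries overlapped. The residual reads were gathered in few windows: the 5 with most reads held 35.8% of all 296. The window at 78144300 to 78145300, with 17 reads, was among them and overlapped the last covered window at the 5′ edge. The part of WWOX beyond the stretch, towards its 3′ end, was at 0.891 to 1.16 of the flank level in all 15 libraries, and the short covered part at the 5′ end at 0.685 to 1.42. Read counts of this kind cannot tell DNA that is missing from DNA that cannot be mapped, and the mappability of the stretch was not tested. Of 53428 autosomal 50 kb bins without N bases, 555 (1.04%) were nearly empty in both lines, and the WWOX run of 14 was the third longest.

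The stretch began in the third intron and ended in the last intron of the MANE Select transcript, which has 9 exons. Exons 4 to 8 lay inside it, with 826 of the 1242 coding bases (66.5%), a number that leaves a remainder of 1 when divided by 3. The 5 windows over exons 4 to 7 had 0 reads in all 15 libraries. At a mean of 89.6 reads per flank window over the 15 libraries, 0 reads allows up to 0.67% of the flank level, for counting error only. The windows over exon 8 held 12 reads, all in 1 library, 16 µM PEO4 replicate 2. Outside the stretch, the windows over exon 3 held 47 reads, and those over exon 9 held 214. Both of these had reads in both lines. Exons 4, 5, 6 and 8 are shown as coding sequence inside the stretch that had no reads, apart from those 12 over exon 8. They are reference sequence on the plus strand of chromosome 16 on GRCh37, 5′ to 3′, and capitals mark neighbouring GG or CC bases, the main targets of cisplatin on either strand.
WWOX exon 4: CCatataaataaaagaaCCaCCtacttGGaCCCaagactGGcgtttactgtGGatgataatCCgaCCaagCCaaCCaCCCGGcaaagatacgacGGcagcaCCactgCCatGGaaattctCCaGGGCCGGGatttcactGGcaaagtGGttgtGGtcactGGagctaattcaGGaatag
WWOX exon 5: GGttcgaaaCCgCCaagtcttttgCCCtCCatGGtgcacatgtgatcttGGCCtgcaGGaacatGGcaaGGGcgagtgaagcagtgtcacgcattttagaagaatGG
WWOX exon 6: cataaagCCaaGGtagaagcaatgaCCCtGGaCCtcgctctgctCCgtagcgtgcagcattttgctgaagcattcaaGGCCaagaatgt
WWOX exon 8: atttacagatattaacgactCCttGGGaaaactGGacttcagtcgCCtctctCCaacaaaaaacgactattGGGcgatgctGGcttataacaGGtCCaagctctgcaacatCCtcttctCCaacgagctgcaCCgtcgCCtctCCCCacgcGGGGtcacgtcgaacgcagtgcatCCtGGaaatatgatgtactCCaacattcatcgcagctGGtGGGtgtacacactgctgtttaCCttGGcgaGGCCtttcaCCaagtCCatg
Exon 4 is at chr16:78148873-78149051, exon 5 at chr16:78198080-78198186, exon 6 at chr16:78420757-78420845 and exon 8 at chr16:78466385-78466649. The GG or CC pairs within them numbered 30, 14, 9 and 33.

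**Figure D3:**
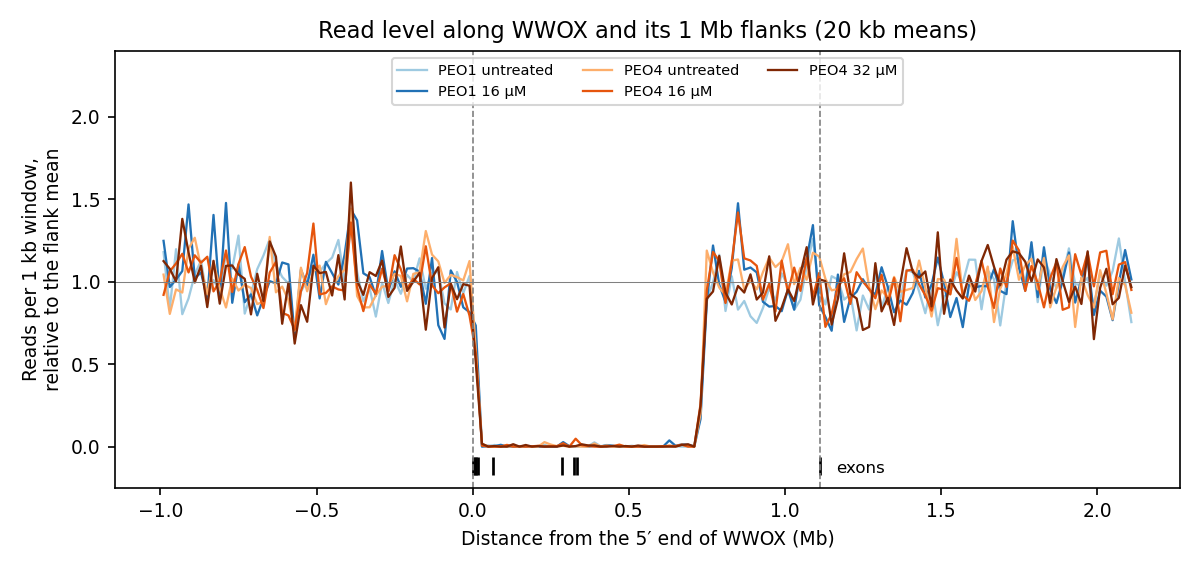
Reads per 1 kb window, averaged over 20 kb and 3 replicates and divided by the mean of the flanks, against the distance from the 5′ end of WWOX in Mb; dashed lines mark the gene's ends and ticks its 9 exons. All 5 groups fall to near 0 over the same 725 kb and return to the flank level inside the gene.

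LRP1B encodes a large endocytic receptor of the LDL receptor family and lies on the minus strand at chr2:140988992-142888585. Its level was 7.05, 6.0 and 6.55 scaled reads per kb in untreated PEO1 and 10.4, 11.1 and 10.0 in untreated PEO4. Cisplatin at 16 µM gave 5.74, 6.60 and 6.79 (PEO1) against 12.7, 10.4 and 10.7 (PEO4), and 32 µM PEO4 stood at 10.1, 13.0 and 12.4. All 9 PEO4 libraries were above all 6 PEO1 libraries. Of its 38 bins, 34 were higher in PEO4 in the untreated lines and 35 at 16 µM, 34 of them in both, beside 23.9% and 22.3% of all 50 kb bins called in either direction, the shares against which the bin counts of the other members are also read. The bin with the highest difference, chr2:141900001-141950000, held 210 to 364 scaled reads in untreated PEO1 and 544 to 575 in untreated PEO4 (log2FC 1.01 ± 0.16, adjusted p = 2.32e-05). The one with the lowest, chr2:141600001-141650000, went the other way, at 371 to 464 in PEO1 and 282 to 344 in PEO4 (-0.37 ± 0.17, adjusted p = 0.137), and did not pass.

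That bin lay in a stretch where PEO4 fell back to the level of PEO1. A search for the segment of the gene in which the PEO4 share of reads differed most placed it at 141545700 to 141720400 in the untreated libraries (175 kb) and at 141545700 to 141723100 in the treated ones (177 kb). The search was added after the values along the gene had been seen. The level inside, divided by that of the rest of the gene, was 0.492, 0.583 and 0.518 in untreated PEO4 and 1.15, 1.03 and 1.2 in untreated PEO1. In the treated libraries the same segment gave 0.517, 0.47 and 0.58 in 16 µM PEO4, 0.504, 0.60 and 0.505 in 32 µM PEO4, and 1.1, 1.07 and 1.0 in 16 µM PEO1. The PEO4 libraries were thus below all PEO1 libraries with and without cisplatin. In the untreated libraries, in which this segment was chosen for its line difference, that follows from the choice. At 16 µM an exact two-sided permutation test gave p = 0.1, the smallest that 3 against 3 libraries allow. In absolute terms the segment held 5.25 ± 0.69 scaled reads per window in untreated PEO4 and 6.56 ± 0.87 in untreated PEO1, and the rest of the gene 9.86 ± 0.46 and 5.81 ± 0.43 (SD, n = 3). Its 50 kb bins stood at 0.499 to 0.666 of the flank median in untreated PEO4, and none was under the limit of 0.5 in all 3 libraries.

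The segment held 14 of the 91 exons of the MANE Select transcript of LRP1B, exons 19 to 32, with 2472 of 13797 coding bases, a multiple of 3. The first and the last of them are shown, since they are the outermost exons within the PEO4 segment. They are reference sequence of the minus strand of chromosome 2 on GRCh37, 5′ to 3′, with neighbouring GG or CC bases in capitals.
LRP1B exon 19: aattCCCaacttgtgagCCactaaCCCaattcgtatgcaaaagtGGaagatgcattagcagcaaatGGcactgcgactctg
LRP1B exon 32: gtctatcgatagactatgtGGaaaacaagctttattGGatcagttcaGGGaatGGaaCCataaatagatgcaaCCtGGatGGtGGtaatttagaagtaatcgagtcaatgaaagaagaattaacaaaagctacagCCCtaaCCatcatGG
Exon 19 is at chr2:141709429-141709509 and exon 32 at chr2:141571226-141571375. They hold 7 and 14 GG or CC pairs.

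The line difference over LRP1B began outside the gene, and there the step was in PEO1. In the 1 Mb flank beyond the 3′ end of LRP1B the level of PEO1 changed at 140740200 in the untreated libraries and at 140739300 in the treated ones, about 249 and 250 kb from the gene. On the far side of the step, untreated PEO1 held 11.3 ± 0.58 scaled reads per window and untreated PEO4 9.74 ± 0.55. Between the step and the gene they held 6.40 ± 0.32 and 10.9 ± 0.89 (SD, n = 3). In the flank at the other end of the gene the values were 6.28 ± 0.28 and 10.4 ± 0.45, so the lower level of PEO1 ran through LRP1B and at least 1 Mb beyond its 5′ end. The log2 ratio of the gene to its 1 Mb flanks was -0.476 ± 0.067 in untreated PEO1 and -0.115 ± 0.011 in untreated PEO4, a difference of 0.36. At 16 µM it was -0.462 ± 0.041 and -0.083 ± 0.034, a difference of 0.38. The libraries of the lines did not overlap in either comparison (exact two-sided permutation test, p = 0.1, the smallest possible). The flank beyond the step lowers this ratio in PEO1 by construction. With Benjamini-Hochberg adjustment over the 8 genes, the permutation p-values of LRP1B were 0.16 untreated and 0.4 at 16 µM. The lines were without overlap in 5 of 8 members untreated, with differences of 0.165 (WWOX), -0.088 (CSMD1), -0.094 (CNTNAP2) and -0.093 (DLG2) beside LRP1B. At 16 µM they were in 2 of 8, LRP1B and CSMD1, and CSMD1 had the opposite sign there (0.073). No share over all gene bodies stands beside these counts, since the ratio was taken for the 8 members only. They therefore do not show that the members differ from other genes.

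MACROD2, which removes ADP-ribose from proteins, lies at chr20:13976015-16033842 on the plus strand. Untreated PEO1 held 13.5, 12.1 and 12.7 scaled reads per kb and untreated PEO4 6.03, 6.03 and 5.95. With 16 µM the values were 11.6, 12.8 and 12.8 (PEO1) and 6.60, 6.17 and 6.12 (PEO4), and with 32 µM 6.08, 6.60 and 6.64 (PEO4). The lowest PEO1 library was above the highest PEO4 library by a wide margin. All 41 bins were lower in PEO4, untreated and at 16 µM. The same difference ran through both flanks, with a log2 ratio of untreated PEO4 over PEO1 of -1.03 on one side and -1.09 on the other, beside -1.09 over the gene on the same scale. The gene-to-flank ratio therefore differed by -0.025 between the untreated lines (exact permutation p = 0.6).

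Within MACROD2 the bin with the lowest line difference, chr20:15150001-15200000, stood out in PEO1. It held 867, 728 and 929 scaled reads in untreated PEO1 and 281, 291 and 283 in untreated PEO4, a log2FC of -1.52 ± 0.14 (adjusted p = 2.96e-08), and -1.50 ± 0.14 at 16 µM (adjusted p = 6.67e-08). The segment search placed the change at 15141600 to 15236200 in untreated libraries (94.6 kb) and at 15144300 to 15240700 in treated ones (96.4 kb). Inside it, PEO1 was at 1.41, 1.43 and 1.43 of the rest of the gene untreated and 1.44, 1.43 and 1.36 at 16 µM. For PEO4 these ratios were 0.876, 1.01 and 1.01 without cisplatin, 0.943, 0.897 and 1.08 with 16 µM, and 1.03, 1.14 and 0.935 with 32 µM. All PEO1 libraries were above all PEO4 libraries. In the untreated libraries, in which this segment was chosen for its line difference, that follows from the choice. At 16 µM the exact permutation test gave p = 0.1, the smallest possible. Exon 6 of the 18 exons of the MANE Select transcript lay in it. The bin with the highest difference, chr20:15000001-15050000, was also lower in PEO4 (-0.56 ± 0.15, adjusted p = 0.00476, and -0.53 ± 0.15 at 16 µM, adjusted p = 0.00817). A second search around it gave 255 kb in untreated and 790 kb in treated libraries, so that change could not be placed.

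**Figure D4:**
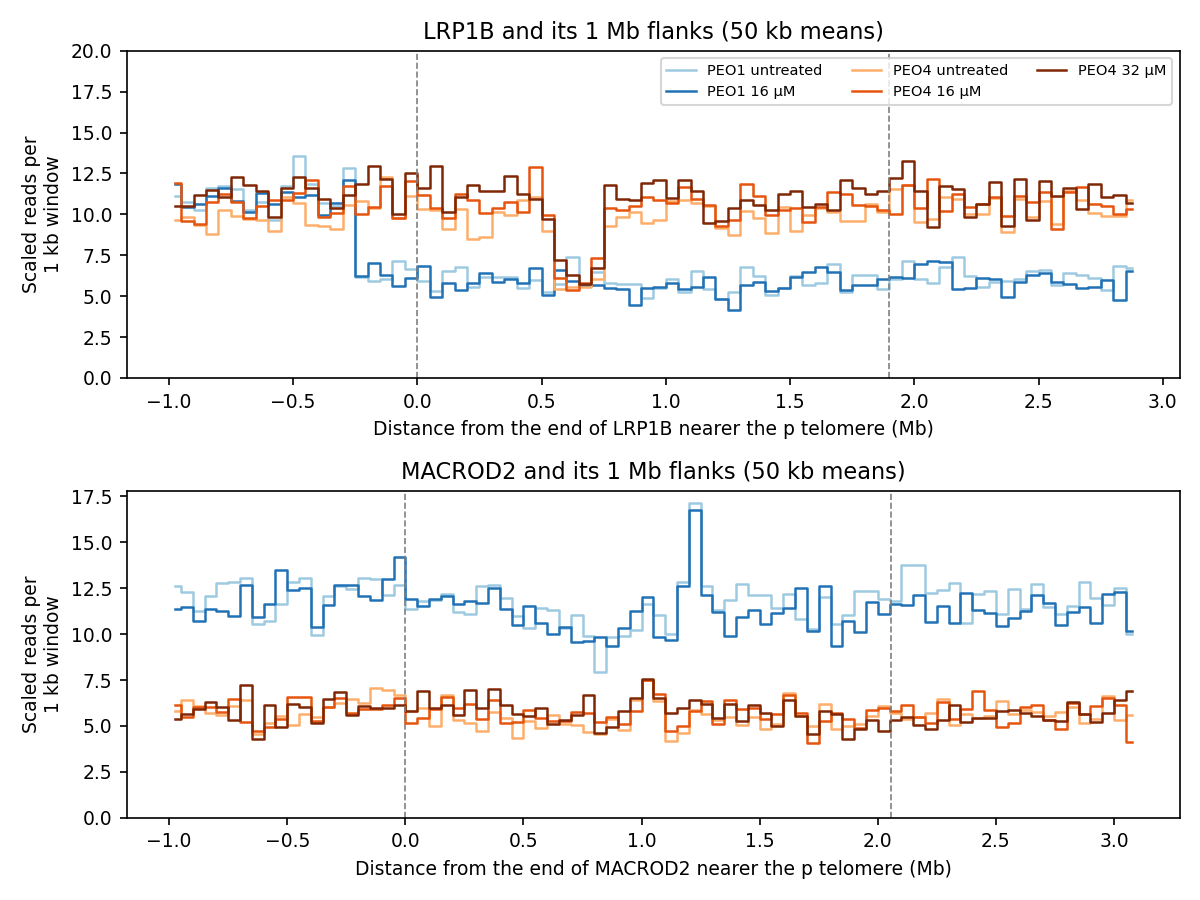
Scaled reads per 1 kb window, averaged over 50 kb and 3 replicates, along LRP1B (top) and MACROD2 (bottom) with 1 Mb flanks; the horizontal axis is the distance in Mb from the gene end with the lower coordinate and dashed lines mark the gene's ends. PEO1 drops before LRP1B, PEO4 dips inside it over about 175 kb, and PEO1 peaks inside MACROD2, each in treated and untreated groups alike.

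CNTNAP2, a neurexin-like adhesion protein of axons, lies at chr7:145813094-148118090 on the plus strand. Its level was 17.3, 16.0 and 17.1 in untreated PEO1 and 11.3, 11.7 and 11.03 in untreated PEO4, and it was 15.7, 16.9 and 17.0 against 12.7, 11.4 and 11.7 at 16 µM. In untreated cells 44 of its 46 bins were lower in PEO4, and 35 were at 16 µM, 33 of them in both. The difference varied little along the gene, with a standard deviation of 0.104 between bins around a median log2FC of -0.53. It reached -0.80 ± 0.12 at chr7:147150001-147200000 (adjusted p = 9.33e-06) and -0.28 ± 0.15 at chr7:148050001-148100000, which did not pass (adjusted p = 0.212). At 16 µM the order was reversed, at -0.41 ± 0.12 (adjusted p = 0.0108) in the first bin and -0.56 ± 0.15 (adjusted p = 0.00415) in the second. Both passed there. The flanks differed in the same direction, with log2 ratios of -0.61 and -0.35 between the untreated lines. CNTNAP2 was not searched for steps.

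FHIT, CSMD1, IMMP2L and DLG2 showed few differing bins and no low stretch against their flanks. Against bins of the same GC content, FHIT had 4 low bins in PEO1 and 6 in PEO4, and CSMD1 had 17 and 22 of 41. No share over all bins stands beside these counts, and the flanks were near the level of the gene. In untreated PEO1 the flanks held 5.72 and 5.61 scaled reads per window for CSMD1, beside 5.32 in the gene. For FHIT they held 5.91 and 6.24, beside 5.67. FHIT, the hydrolase gene at a much-studied fragile site (chr3:59733003-61237133, minus strand), had 1 of 30 bins that passed in the untreated lines, chr3:60300001-60350000. That bin held 330, 267 and 238 scaled reads in PEO1 and 396, 372 and 376 in PEO4 (log2FC 0.49 ± 0.17, adjusted p = 0.0382), and its value at 16 µM was -0.12 ± 0.17 (adjusted p = 0.845). Its lowest bin, chr3:61100001-61150000, was at -0.34 ± 0.17 (adjusted p = 0.194). CSMD1, a transmembrane complement regulator (chr8:2792875-4852494, minus strand), had 3 of 41 bins lower in untreated PEO4 and 0 at 16 µM. Its lowest bin, chr8:4700001-4750000, was at -0.63 ± 0.17 (adjusted p = 0.00705) untreated and 0.012 ± 0.17 at 16 µM, and its highest, chr8:4000001-4050000, at 0.15 ± 0.20 (adjusted p = 0.684).

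IMMP2L, a subunit of the mitochondrial inner membrane peptidase (chr7:110302700-111202573, minus strand), had 1 of 18 bins higher in untreated PEO4 and 0 at 16 µM. That bin, chr7:110650001-110700000, was at 0.43 ± 0.14 (adjusted p = 0.0228) and then at -0.047 ± 0.14 at 16 µM, and its lowest, chr7:110500001-110550000, was at -0.24 ± 0.18 (adjusted p = 0.445). DLG2, a synaptic scaffold protein (chr11:83166055-85339379, minus strand), had 2 of 44 bins lower in untreated PEO4 and 0 at 16 µM. The lowest, chr11:83750001-83800000, was at -0.41 ± 0.14 (adjusted p = 0.0257) and then -0.085 ± 0.13, and the highest, chr11:84350001-84400000, at 0.084 ± 0.12 (adjusted p = 0.716). The 7 bins that passed in these 4 genes did so in the untreated comparison alone, and the difference between that comparison and the one at 16 µM, tested as the response difference at equal dose, passed in 0 of 266 member bins. In WWOX 8 of 22 bins had enough reads to be tested and none passed. Their line differences ran from -0.12 ± 0.19 at chr16:78900001-78950000 (adjusted p = 0.753) to 0.25 ± 0.19 at chr16:79000001-79050000 (adjusted p = 0.437). Over all members, 266 bins were tested. Of these, 126 differed between the untreated lines (47.4%, beside 23.9% of all bins) and 111 at 16 µM (41.7%, beside 22.3%). Nearly all lay in LRP1B (34 untreated and 35 at 16 µM), MACROD2 (41 and 41) and CNTNAP2 (44 and 35). In these genes the difference ran through most of the gene body and into flanking sequence. Neighbouring bins of a gene are not independent, so the pooled shares do not show an excess of line differences among the members.

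No member passed the test for a change with cisplatin. In PEO1 at 16 µM the log2FC over untreated lay between -0.12 (CSMD1) and 0.0013 (WWOX), and 0 of 8 members passed, beside 0.0058% of all gene bodies. In PEO4 it lay between 0.035 (WWOX) and 0.17 (LRP1B) at 16 µM and between -0.13 (WWOX) and 0.26 (LRP1B) at 32 µM, and again 0 of 8 passed, beside 0% of all gene bodies in both. At an unadjusted p under 0.05, edgeR gave 0 of 8 members in each of the 3 comparisons, beside 5.63%, 2.62% and 6.88% of all gene bodies, and DESeq2 called none at an adjusted p under 0.05. In a fit of only the groups compared, LRP1B, MACROD2, IMMP2L and DLG2 at 32 µM had an unadjusted edgeR p of 0.0219, 0.0428, 0.0208 and 0.0209, beside 10.9% of all gene bodies under 0.05, and adjusted p-values of 0.439 to 0.453. The difference in response between PEO4 and PEO1 was called for 0 of 8 members, 32 µM against 16 µM (from -0.13 to 0.33) and at equal dose (from 0.034 to 0.27), beside 0% of all gene bodies in each. In 50 kb bins 0 of 266 member bins and 0% of all bins passed in any of these 5 comparisons. At an unadjusted p under 0.05 there were 8 member bins for 16 µM PEO1, 9 for 16 µM PEO4 and 28 for 32 µM PEO4. These were 3.01%, 3.38% and 10.5% of the member bins, beside 3.94%, 2.55% and 8.25% of all bins.

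Though none passed, 7 of the 8 estimates at 32 µM were above 0 and 7 of 8 in PEO1 were below 0. Relative to the untreated mean of the line, the slope of log2 counts per 10 points of GC content was 0.395, -0.047 and -0.042 in the 16 µM PEO1 libraries, -0.456, 0.017 and -0.051 in 16 µM PEO4 and 0.031, -0.430 and -0.329 in 32 µM PEO4. Replicate 1 alone stood apart in each 16 µM group, and replicates 2 and 3 did at 32 µM. The part of these slopes in the shifts was not tested beyond the offset. With a GC offset per library the median over the members went from 0.17 to 0.0065 at 32 µM, from 0.14 to 0.0078 in PEO4 at 16 µM, and from -0.066 to 0.022 in PEO1. The median over all gene bodies without the offset was 0.0039, 0.0047 and -0.0017.

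WWOX, the most GC-rich member, had 2.21, 2.16 and 2.34 scaled reads per kb in untreated PEO4. With cisplatin these were 2.23, 2.24 and 2.13 (16 µM) and 1.95, 1.88 and 1.97 (32 µM). The 3 libraries at 32 µM were below the other 6. The fitted change at 32 µM was -0.13 ± 0.093 (edgeR, adjusted p = 0.744) and with the GC offset -0.15 ± 0.062 (unadjusted p = 0.0169, adjusted p = 0.964). The gene-to-flank ratio of WWOX was -0.144 ± 0.103 untreated and -0.29 ± 0.021 at 32 µM (SD, n = 3; exact two-sided permutation p = 0.1, the smallest possible). MACROD2 went the other way without overlap, at -0.109 ± 0.034 untreated, -0.042 ± 0.013 at 16 µM and 0.018 ± 0.038 at 32 µM (p = 0.1 for each dose against untreated by the same exact permutation test). CSMD1 was at -0.109 ± 0.015 in untreated and -0.17 ± 0.0025 in 16 µM PEO1 (exact permutation p = 0.1), and no other member was without overlap in these 3 comparisons. Members without overlap thus numbered 1 of 8 in 16 µM PEO1, 1 in 16 µM PEO4 and 2 in 32 µM PEO4. The ratio was not taken for other gene bodies, so no share over all stands beside these counts. With 3 against 3 libraries, random labels leave a member without overlap with a probability of 0.1. With Benjamini-Hochberg adjustment over the 8 genes, the permutation p-values were 0.4 for WWOX and 0.8 for CSMD1. For MACROD2 they were 0.32 at 16 µM and 0.4 at 32 µM, so none of these shifts passed. In the response difference, 2 of 8 members were without overlap for 32 µM against 16 µM and 3 of 8 at equal dose. None of them passed either (adjusted permutation p = 0.4 and 0.267). For WWOX nearly all reads came from the covered ends of the gene. Nearly empty windows with a stray read still count as windows in its gene-to-flank ratio and lower it. The covered part towards the 3′ end was at 1.04, 0.995 and 1.16 of the flank level in untreated PEO4. At 32 µM it was at 0.935, 0.968 and 0.974. The short covered 5′ part overlapped between these groups, at 0.967 to 1.26 untreated and 0.697 to 1.36 at 32 µM.

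**Figure D5:**
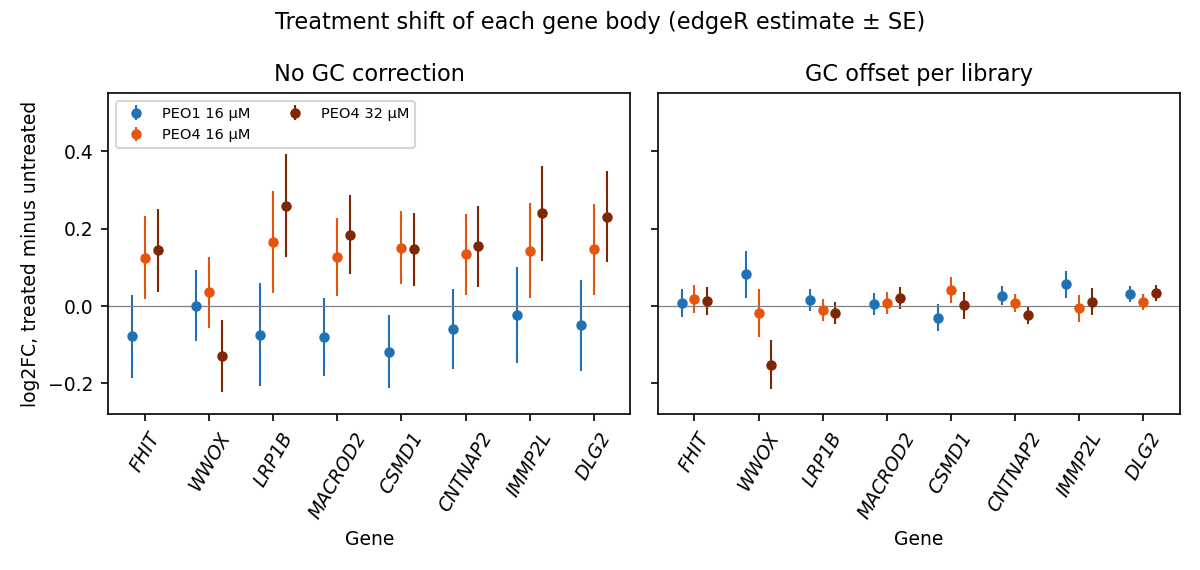
The vertical axis gives the log2FC of treated over untreated libraries for each gene body with its SE from edgeR, without (left) and with (right) a GC offset per library, for PEO1 at 16 µM and PEO4 at 16 and 32 µM. On the left most PEO4 estimates lie above 0, up to 0.26, and on the right all but those of WWOX lie between -0.030 and 0.056.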

How the data were processed

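The deposited table holds raw counts per window: the authors trimmed 100 base single reads with BBDuk, aligned them with bowtie2 to hg19, removed blacklisted regions and removed duplicates with Picard (versions are not given in the sources used here), and counted reads in 1 kb windows stepped by 900 bases. Window coordinates are given as in the table. The 8 genes, the lists and the tests were chosen with earlier results of these data known. Gene bodies and MANE Select exons came from GENCODE 44 on GRCh37. Windows were summed by midpoint into gene bodies and 50 kb bins, and 17241 of 20098 gene bodies and 56057 of 60739 bins had a mean count of at least 50. All 15 libraries entered 1 edgeR 4.0.16 fit (R 4.3.3) with TMM factors, trended dispersion and the quasi-likelihood F test, with Benjamini-Hochberg adjustment over all features and a limit of 0.05. DESeq2 1.42.0, other scalings, GC offsets and left-out libraries were alternatives. A bin was low in a line when under 0.5, and nearly empty when under 0.1, of the flank median in each untreated library. Some exon sequences and 1 gene that the naming rule selects are not reported here. Named bins were those with the lowest and highest untreated line difference in each gene. Gene-to-flank ratios used windows with a read in any library. No 2 libraries of a group were copies: chi-square per degree of freedom over bins was 5.25 to 16.4. Counting limits cover counting error only.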

Additional observations from a re-analysis of the deposited data

How the results depend on the processing

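The line differences of LRP1B, MACROD2 and CNTNAP2 kept their direction and passed in all 13 alternatives of each line comparison, though with the GC offset the untreated size moved by over 1.5 times for LRP1B (0.90) and CNTNAP2 (-0.40). Counts of members called and shares of bins called stayed within 1.5 times of the reported values. Without 1 library, 3 to 4 members were called untreated and 3 at 16 µM, with 41.35% to 43.98% of tested member bins untreated, against 47.4%, and 36.84% to 41.73% at 16 µM, and 0 in all cisplatin comparisons. Without 1 library the gene-to-flank difference ranged over -0.0058 to 0.077 (FHIT), 0.11 to 0.20 (WWOX), 0.32 to 0.39 (LRP1B), -0.068 to -0.002 (MACROD2), -0.11 to -0.069 (CSMD1), -0.12 to -0.068 (CNTNAP2), -0.058 to 0.011 (IMMP2L) and -0.13 to -0.06 (DLG2) untreated, and over -0.012 to 0.045 (FHIT), -0.02 to 0.11 (WWOX), 0.36 to 0.40 (LRP1B), 0.0072 to 0.037 (MACROD2), 0.048 to 0.11 (CSMD1), -0.026 to 0.066 (CNTNAP2), -0.08 to 0.0035 (IMMP2L) and -0.083 to 0.035 (DLG2) at 16 µM. With 0.5 Mb flanks it moved to 0.26 (LRP1B), -0.026 (CSMD1) and -0.034 (CNTNAP2) untreated, and to -0.027 (FHIT) and 0.27 (LRP1B) at 16 µM. Divided by the GC trend it moved to -0.021 (CSMD1) and -0.0024 (CNTNAP2) untreated. Against bins of the same GC content in place of the flanks, 38 member bins were low in PEO1 and 49 in PEO4, against 14 in each, with FHIT and CSMD1 among them in both lines and MACROD2 in PEO4. No share over all bins stands beside these counts. Limits of 0.4 and 0.6 gave 14 and 14 in PEO1 and 14 and 16 in PEO4, and leaving out 1 untreated library gave 14 in PEO1 and 14 to 15 in PEO4.

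Values that did not pass changed sign as follows, and the cause was not tested. With the GC offset the untreated line difference was 0.077 (FHIT), 0.032 (WWOX), 0.21 (IMMP2L) and 0.012 (DLG2), of which IMMP2L passed. At 16 µM the CSMD1 line difference was 0.034 with the GC offset, 0.0032 with no filter and 0.00075 with only the groups compared. The PEO1 response was 0.0090 (FHIT), 0.016 (LRP1B), 0.0051 (MACROD2), 0.027 (CNTNAP2), 0.056 (IMMP2L) and 0.031 (DLG2) with the GC offset, and that of WWOX -0.0040 with DESeq2's size factors, -0.0040 with its test, -0.0039 with no filter and -0.0049 with only the groups compared. The PEO4 response was -0.018 (WWOX), -0.011 (LRP1B) and -0.0052 (IMMP2L) for 16 µM and -0.017 (LRP1B) and -0.023 (CNTNAP2) for 32 µM with the GC offset, and -0.0063 (WWOX, 16 µM) with library totals. Without 1 library these ranged across 0: the untreated line difference over -0.12 to 0.013 (IMMP2L); that at 16 µM over -0.071 to 0.13 (FHIT), -0.12 to 0.0083 (WWOX), -0.092 to 0.053 (CSMD1), -0.048 to 0.17 (IMMP2L) and -0.18 to 0.026 (DLG2); the PEO1 response over -0.14 to 0.027 (FHIT), -0.068 to 0.063 (WWOX), -0.15 to 0.031 (LRP1B), -0.14 to 0.00068 (MACROD2), -0.11 to 0.014 (CNTNAP2), -0.10 to 0.11 (IMMP2L) and -0.12 to 0.058 (DLG2); the 16 µM PEO4 response over -0.027 to 0.078 (WWOX); and the lowest WWOX bin over -0.30 to 0.031. Replicate numbers did not pair the libraries: deviations of same-numbered libraries correlated from -0.546 to 0.485 over 30 pairs, 11 of them above 0.1, and 8 correlated best with their own number. With the replicate block 3 of 8 members differed untreated (CSMD1 no longer, at -0.27) and 3 at 16 µM.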

Other observations

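A pair of comparison lists of long genes were read by counts. Of 24 other long genes at or near fragile sites, 5 were lower and 0 higher in untreated PEO4, and 4 were lower and 0 higher at 16 µM (edgeR, adjusted p under 0.05), beside 22.4% and 18.1% of all gene bodies called in either direction, shares near those of the list. Those lower in PEO4 in both comparisons included CCSER1 (log2FC -1.18 ± 0.13, SE, adjusted p = 4.23e-07, untreated; -0.96 ± 0.13, adjusted p = 6.29e-06, at 16 µM) and NAALADL2 (-0.92 ± 0.12, adjusted p = 3.75e-06; -0.70 ± 0.12, adjusted p = 0.000112). The median over the 24 genes was -0.22 untreated and -0.033 at 16 µM, beside -0.0027 and -0.013 over all gene bodies, and with a GC offset 3 were higher and 4 lower untreated. Of the 91 other protein-coding genes of at least 0.9 Mb that were tested, 3 were higher and 10 lower in untreated PEO4 and 7 higher and 7 lower at 16 µM, beside the same 22.4% and 18.1%. With the GC offset the numbers were 19 and 9, and 12 and 8, beside 24.3% and 22.1% of all gene bodies. None of either list passed in a cisplatin comparison. Their medians at 32 µM in PEO4 were 0.20 and 0.19, and with the GC offset 0.0053 and 0.015.

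The log2 ratio of WWOX to its flanks was between -1.59 and -1.42 in the 5 group means when taken per kb of sequence without N bases. Per window with a read in any library it was -0.308 to -0.144, which shows how far windows without any read weigh in the first measure.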
